A study of Mus musculus with 10 samples.

Results

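The perineuronal net components described here are 10 genes: the lecticans *Acan*, *Bcan*, *Ncan* and *Vcan*, the link proteins *Hapln1*, *Hapln2*, *Hapln3* and *Hapln4*, and the tenascins *Tnr* and *Tnc*. They were chosen by gene symbol, and all 10 were found among the 25232 genes of the deposited table. RNA was sequenced from the spinal cord of 5 female SOD1 G93A mice and 5 female wild type (WT) mice, both on the C57BL/6 strain and 90 days old. The SOD1 G93A mice are a transgenic model of amyotrophic lateral sclerosis that carries many copies of mutant human *SOD1*, the WT mice were their littermates, and the study treats this age as early symptomatic. The lumbar cord is named in the methods, whereas the labels say spinal cord with no region. From this table, the base mean was used, which is the authors' mean over all libraries, of both genotypes together, of read counts divided by size factors. The outcome of the authors' own comparison of the genotypes was not used, so that the values below describe the level of each gene in the spinal cord and say nothing of a difference between SOD1 G93A and WT mice. In whole tissue, fewer cells of a type and less RNA per cell cannot be told apart.

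Perineuronal nets are dense sheets of extracellular matrix around the cell bodies and proximal dendrites of certain neurons, among them fast-spiking interneurons and, in the spinal cord, many motor neurons. Their backbone is hyaluronan, a long sugar chain made at the cell surface. Lecticans, which are chondroitin sulfate proteoglycans, bind hyaluronan at one end, link proteins lock this contact, and tenascin-R ties lecticans together at their other end. Some of the same genes also serve matrix elsewhere in white and grey matter, such as that around the nodes of Ranvier, and a tissue average does not separate these places.

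The level of a gene is given below per kb of exon: the base mean was divided by the length of the union of its exons and scaled to a sum of 1000000 over all genes with a length. The lengths came from GENCODE, whereas the annotation on which the authors counted reads is not given. Reads and length of a gene may therefore rest on different gene models. The median of this length-scaled level was 12.5 over the 20399 genes with a base mean above 0 and a length. *Bcan*, *Hapln2* and *Hapln4* had by far the highest levels of the 10 genes, at 482, 309.6 and 300.8. *Ncan* followed at 58.6, and the other 6 genes lay at 24.1 or below. The 3 highest genes held 88.8% of the summed level of all 10, and the 7 others held 11.2%. *Hapln3* was the lowest at 1.15, and *Bcan* was 419 times as high on the same scale. This fold depended on the length used, and was 518 with the longest transcript, 197 with the longest coding sequence and 143 with the shortest protein-coding transcript, with *Hapln3* the lowest member under each.

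Sequence upstream of the gene start is shown for the members at both ends of this order, *Bcan* and *Hapln2* at the top and *Tnc* and *Hapln3* at the bottom. Each run holds the 250 bases before a RefSeq gene start of GRCm38.p6, written 5′ to 3′ along the gene. RefSeq starts differ in places from those of GENCODE, the annotation used for the gene lengths and positions. Part of the *Hapln2* window therefore lies inside the GENCODE span of that gene. All 4 genes lie on the minus strand, and the windows are chr3:88000357-88000606 for *Bcan*, chr3:88027512-88027761 for *Hapln2*, chr4:64047016-64047265 for the more upstream of the starts listed for *Tnc*, and chr7:79131019-79131268 for *Hapln3*. Capitals mark TATAAA (the letters of the TATA box), GGGCGG (of the GC box) and CCAAT (of the CCAAT box), each searched on both strands. These box names stand below for the letters anywhere in the window, at any distance from the gene start.
Bcan: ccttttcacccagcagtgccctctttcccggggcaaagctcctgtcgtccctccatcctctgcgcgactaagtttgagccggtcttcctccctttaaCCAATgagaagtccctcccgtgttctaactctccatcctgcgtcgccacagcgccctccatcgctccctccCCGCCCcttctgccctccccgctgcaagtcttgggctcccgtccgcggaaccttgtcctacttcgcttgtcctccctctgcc
Hapln2: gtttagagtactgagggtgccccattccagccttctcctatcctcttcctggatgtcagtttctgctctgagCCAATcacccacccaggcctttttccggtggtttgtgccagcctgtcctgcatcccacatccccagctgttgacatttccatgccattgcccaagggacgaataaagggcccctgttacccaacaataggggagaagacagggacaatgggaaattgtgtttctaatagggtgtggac
Tnc: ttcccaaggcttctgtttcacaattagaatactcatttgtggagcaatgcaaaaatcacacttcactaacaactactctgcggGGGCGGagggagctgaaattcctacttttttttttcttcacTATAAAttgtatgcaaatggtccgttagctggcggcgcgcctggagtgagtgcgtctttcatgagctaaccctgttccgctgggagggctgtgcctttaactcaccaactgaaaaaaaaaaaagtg
Hapln3: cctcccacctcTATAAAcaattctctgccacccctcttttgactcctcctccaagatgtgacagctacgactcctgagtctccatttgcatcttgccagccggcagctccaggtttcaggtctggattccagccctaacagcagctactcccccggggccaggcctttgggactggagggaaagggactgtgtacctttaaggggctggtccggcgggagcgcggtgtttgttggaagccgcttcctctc

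These windows differed in their letters. *Bcan* had 16 CpG dinucleotides, a GC box and a CCAAT box, and *Hapln2* had 2 CpG dinucleotides and a CCAAT box. The *Tnc* window held a TATA box and a GC box among 8 CpG dinucleotides, and the *Hapln3* window held a TATA box, also with 8. RefSeq windows were matched for 9 of the 10 genes, all but *Hapln4*. The *Hapln1* window lies wholly inside the GENCODE span of its gene, and the *Ncan* window in part. The *Acan* window was the richest in CpG dinucleotides, with 26 and 3 GC boxes, and those of *Hapln1* and *Tnr* were the poorest together with *Hapln2*, with 2 each and none of the GC and TATA boxes. Over all 32851 windows of this length, the median was 6 CpG dinucleotides, and 12.4% held a TATA box, 32.7% a GC box and 33.8% a CCAAT box. The windows of *Bcan* and *Hapln2* both held a CCAAT box and no TATA box, and those of *Tnc* and *Hapln3* both held a TATA box and no CCAAT box. Over the members with a window, these letters did not follow the order of levels. *Ncan*, the fourth in level, held a TATA box and no CCAAT box, *Vcan*, below the median gene, held a CCAAT box, and *Tnr* and *Hapln1* held neither. *Hapln4*, close to *Hapln2* in level, had no window to compare. In CpG count, *Bcan* and *Hapln2* lay apart, at percentiles 74.6 and 18.8 of all windows. A match of letters is a description and not a site of binding.

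The depth behind these values could be bounded from the table itself. The lowest base means above 0 took 10 distinct values, shared by 716 genes, which is what 1 read in 1 of 10 libraries gives. The size factors they imply ran from 0.84 to 1.15, and the largest was 1.37 times the smallest. Which library has which factor is not known from these values. For each gene the total number of reads counted over all libraries (read pairs counted once, if the authors counted pairs) lies between the base mean divided by the largest and by the smallest of these values. *Hapln3* thus rested on 172 to 237 reads and *Bcan* on 83716 to 114757 reads. The counting error of the base mean was at most 7.61% for *Hapln3*, 2.67% for *Tnc* and 1.61% or less for the other 8 genes. It covers counting error only, since the spread between mice cannot be computed from a mean over libraries.

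As a check of the tissue, Hox genes of the caudal cord were present, the highest being *Hoxc10* (50.3) and *Hoxd9* (19.4). *Neurod6*, the highest gene of the cortical list, was at 7.22. Of 7 Hox genes, 6 were above the median gene, against 0 of 4 cortical genes. The lists overlapped, since the lowest Hox gene, at 3.71, was below *Neurod6*. Oligodendrocyte markers gave the highest levels of any marker list (*Mbp* 7421), and the neuronal genes *Nefl* (2762) and *Snap25* (1710) and the astrocyte genes *Gfap* (2624) and *Slc1a2* (827) were also far above the median gene. Genes of fast-spiking neurons were well measured (*Kcna1* 646, *Pvalb* 371). The 2 highest of 5 motor neuron genes were *Prph* (140.1) and *Slc5a7* (80.7). Of these 5, 3 were above the median gene, and the lowest was at 2.27. The highest genes of the other lists were *Csf1r* of microglia (103.6), *Cldn5* of endothelium (98.6), *Gpr17* of oligodendrocyte precursors (62.0) and *Col1a2* of fibroblasts (19.9). Markers of peripheral nerve (*Prx* 17.1) and of muscle (*Acta1* 32.1, *Ckm* 7.26) were present too, and their part in the levels of the net genes was not tested. The mouse *Sod1* gene on chromosome 16 had a level of 190.6, and this mean over both genotypes does not check the labels.

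**Figure D1:**
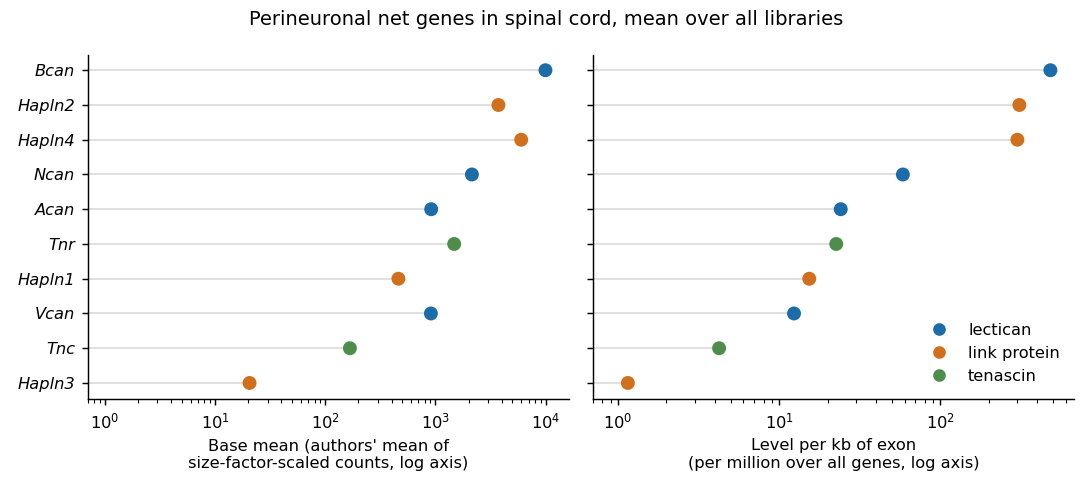
Base mean (left, authors' mean of counts divided by size factors) and length-scaled level (right) of the 10 perineuronal net genes, both on log axes, with 1 point a gene coloured by family and no error bars because each value is a mean over all libraries. On the right, *Bcan*, *Hapln2* and *Hapln4* lie between 300.8 and 482, and *Hapln3* lies at 1.15.

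The 4 lecticans, the hyaluronan-binding proteoglycans, spanned a 39.0-fold range of length-scaled levels from *Bcan* to *Vcan*, or 25.5-fold from *Bcan* to *Acan* with the shortest protein-coding transcripts. *Bcan*, the gene of brevican, a lectican of the nervous system, lies on chromosome 3 of GRCm38 from 87987531 to 88000230. Its base mean was 9966, number 268 from the top of the table, and its level of 482 exceeded that of 98.7% of the genes. *Ncan*, the gene of neurocan, lies on chromosome 8 from 70093085 to 70120873 and had a base mean of 2143. Its level of 58.6 was at percentile 81.2. *Acan*, the gene of aggrecan, which is the lectican most used to mark nets and is also the main proteoglycan of cartilage, lies on chromosome 7 from 79053483 to 79115099. Its base mean was 916 and its level 24.1, above 62.7% of the genes. *Vcan*, the gene of versican, lies on chromosome 13 from 89655312 to 89742509, with a base mean of 909.7. At a level of 12.4 it stood at percentile 49.8, the only lectican below the median gene. *Acan* and *Vcan* had nearly equal base means, and the difference in level came with exon lengths of 7469 and 14462 bases.

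The length of *Vcan* was the least certain of the lecticans. Versican is made as several isoforms that differ in large chondroitin sulfate exons, and the full annotation lists 9 transcripts of *Vcan*. The shortest protein-coding one in the basic subset of the annotation has 2273 bases. With that length, the level of *Vcan* was 31.4, above *Acan* (9.78) and *Ncan* (23.4) on the same shortest-transcript scale. *Bcan* remained the highest of the lecticans under all 4 length definitions. Which isoforms the libraries held cannot be read from 1 value a gene.

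The link proteins spanned a wider range, 269-fold from *Hapln2* to *Hapln3*, or 98.6-fold with the shortest protein-coding transcripts. *Hapln2*, or Bral1, is known from the nodes of Ranvier of myelinated axons and lies on chromosome 3 from 88021750 to 88027583. Its base mean was 3733 and its level of 309.6 was at percentile 97.5. *Hapln4*, or Bral2, which is known as a brevican partner in nets of the brainstem and cerebellum, lies on chromosome 8 from 70083457 to 70090862. It had a base mean of 6003 and a level of 300.8, at percentile 97.4. The levels of *Hapln2* and *Hapln4* differed by 1.03-fold, and their order turned when the longest transcript (236.7 against 243.9) or the longest coding sequence (199.5 against 273.5) was used as the length. With the latter, *Hapln4* was also above *Bcan* (205.7). *Hapln1*, the link protein of cartilage and of cortical nets, lies on chromosome 13 from 89539796 to 89611652. With a base mean of 461.7 and a level of 15.4 it was at percentile 53.8, about as high as the median gene and far below *Hapln2* and *Hapln4*. *Hapln3*, known mostly outside the nervous system, lies on chromosome 7 from 79115102 to 79131018, with a base mean of 20.6 and a level at percentile 24.2. The summed level was 627 for the 4 link proteins and 577 for the 4 lecticans, a ratio of 0.921 for lecticans over link proteins. With the longest transcript this ratio turned to 1.10, with the shortest protein-coding transcript to 1.02, and with the longest coding sequence it was 0.501.

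Both tenascins were below the 3 highest members and *Ncan*, although *Tnr* was above *Ncan* with the shortest protein-coding transcripts (26.3 against 23.4). *Tnr*, the gene of tenascin-R, which cross-links lecticans in nets and is made by oligodendrocytes and some neurons, lies on chromosome 1 from 159523769 to 159931729 and spans 408 kb. Its base mean was 1480, and its level of 22.6 was at percentile 61.4, next to *Acan*. *Tnc*, the gene of tenascin-C, which is prominent in development and after injury, lies on chromosome 4 from 63959785 to 64047015. It had a base mean of 167.6 and a level of 4.24, at percentile 35.4. *Tnr* was 5.33 times as high as *Tnc* (95% counting interval 5.05 to 5.64), and 13.7 times with the longest coding sequence. Exons of both tenascin genes overlap a gene on the opposite strand, over 443 bases for *Tnr* (*Gm38039*) and 176 bases for *Tnc* (*8030451A03Rik*). The strand setting of the counting is not given in the sources used here, and reads of such stretches cannot be assigned without it. The other 8 members shared no exon base with another annotated gene.

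**Figure D2:**
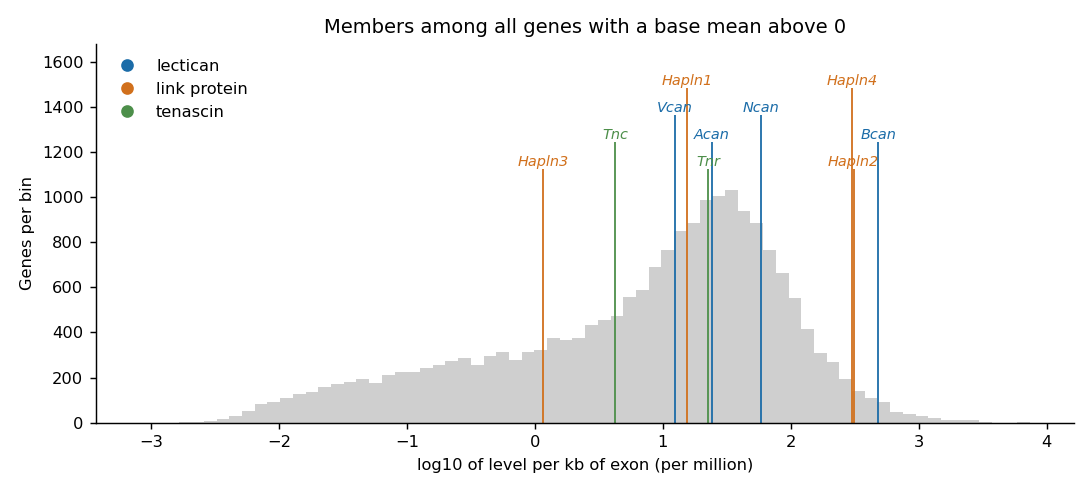
Histogram of the log10 level per kb of exon of all genes with a base mean above 0 (grey, genes per bin), with a vertical line for each of the 10 perineuronal net genes, coloured by family. *Hapln3* and *Tnc* fall in the left shoulder, 5 members fall within the main peak, and *Hapln2*, *Hapln4* and *Bcan* fall in the right tail, where levels above 104.7 mark the top 10% of genes.

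Among all genes with a level, 7 of the 10 members were above the median gene and 3 were in the top 10%, and 0 were in the top 1%, which began at 558. The median level of the 10 was 23.4, against 12.5 over all genes with a base mean above 0. Their median percentile was 62.1 among these genes and 50.5 among genes whose base mean reached 10. Ordered by level, the genes were *Bcan*, *Hapln2*, *Hapln4*, *Ncan*, *Acan*, *Tnr*, *Hapln1*, *Vcan*, *Tnc* and *Hapln3*. The closest neighbours in this order were *Hapln2* and *Hapln4*, with a ratio of 1.03, and *Acan* and *Tnr*, with a ratio of 1.07. *Tnr* was above *Acan* with the longest coding sequence (19.9 against 7.83) and with the shortest protein-coding transcript (26.3 against 9.78). The widest steps were from *Hapln4* down to *Ncan* (5.14-fold) and from *Tnc* down to *Hapln3* (3.68-fold, but 1.39-fold with the longest coding sequence). Whether neighbours differ by more than the spread between mice could not be tested.

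The members share a position in the genome that was not used to choose them. Each of the 4 link protein genes is the next annotated gene to a lectican gene, with 0 genes between them, and the families fall into the pairs *Hapln2* with *Bcan*, *Hapln4* with *Ncan*, *Hapln1* with *Vcan* and *Hapln3* with *Acan*. *Hapln2* and *Bcan* lie on the same strand, 21.5 kb apart. The other pairs point at each other tail to tail, 2222 bases apart for *Hapln4* and *Ncan*, 43.7 kb for *Hapln1* and *Vcan*, and only 2 bases for *Hapln3* and *Acan* in the GENCODE annotation. *Tnr* and *Tnc* are alone on chromosomes 1 and 4.

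Neighbours did not have a common ratio of levels. *Hapln4* was 5.14 times as high as *Ncan* (95% counting interval 5.05 to 5.22), and 8.88 times with the longest coding sequence. *Hapln1* was 1.24 times as high as *Vcan* (1.20 to 1.29), but 4.78 times with the longest coding sequence and below it with the shortest protein-coding transcripts (6.35 against 31.4). *Bcan* was 1.56 times as high as *Hapln2* (1.54 to 1.58), and with the longest coding sequence both were nearly level (205.7 against 199.5). *Acan* was 20.9 times as high as *Hapln3* (18.0 to 24.4), and 7.50 times with the longest coding sequence or 5.63 times with the shortest protein-coding transcript. This was the widest gap of the 4 pairs except with the longest coding sequence, where that of *Hapln4* and *Ncan* was wider. The link protein to lectican ratio differed by 107.5-fold between the first and the last of these pairs, by 66.5-fold with the longest coding sequence and by 31.1-fold with the shortest protein-coding transcript. By summed level, the pair on chromosome 3 was the highest at 792, then that on chromosome 8 at 359, while the pairs on chromosomes 13 and 7 summed to 27.8 and 25.3. The pairs kept this order with the other lengths, although the sums moved, down to 405 and 152.7 for the pairs on chromosomes 3 and 8 and to 8.87 for that on chromosome 7. In these libraries a high lectican stood beside a high link protein in one pair of loci, *Bcan* and *Hapln2*, and a lectican of middle level beside the lowest link protein in another, *Acan* and *Hapln3*.

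**Figure D3:**
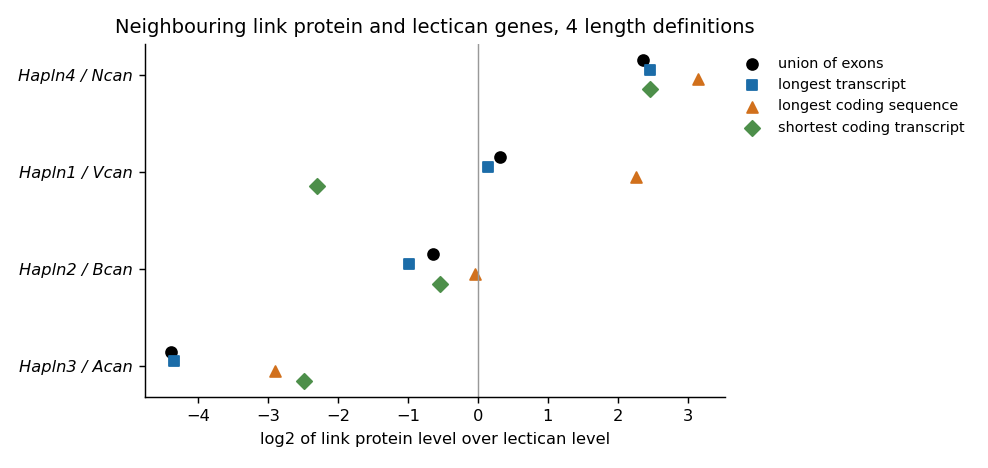
Log2 ratio of the level per kb of each link protein gene over its neighbouring lectican gene (1 row a pair), computed with 4 definitions of gene length (symbols). The grey line at 0 marks equal levels. *Hapln4* over *Ncan* lies to the right of it and *Hapln3* over *Acan* to the left with every length, whereas *Hapln1* over *Vcan* changes side with the shortest protein-coding transcript.

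The other genes of the matrix were read from 6 lists that hold 69 different genes with a level. Of these, 40 (58.0%) were above the median gene, and their median level was 15.2. *Timp2* was the only one above *Bcan*, and *Timp2* and *Sdc3* were the only ones above *Hapln4*, so that the 3 highest net genes were near the top of the matrix genes examined. Levels of the list genes, and these comparisons with them, are given with the union of exons only. At the other end, 6 of the 69 were below *Hapln3*.

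The proteoglycans outside the lectican family had the highest median of the 6 lists, 71.2, and 9 of 11 were above the median gene. The syndecans *Sdc3* (354) and *Sdc4* (238.6), heparan sulfate proteoglycans of the cell surface, led them, and the basement membrane gene *Hspg2* (10.5) was the lowest. The hyaluronan list, made up of synthases, hyaluronidases and receptors, had the lowest median, 4.50, with 3 of 10 genes above the median gene. Its highest genes were the hyaluronidase gene *Hyal1* (15.5) and the hyaluronan receptor gene *Cd44* (14.8), and *Hmmr* (0.499) was the lowest. The 3 hyaluronan synthase genes, singled out after their values were seen, were at 5.99 for *Has3*, 1.46 for *Has1* and 0.764 for *Has2*. By level per kb, 6 of the 10 net genes were above every gene of the hyaluronan list.

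Chondroitin sulfate chains are built on a linker, lengthened and then sulfated, and 13 of the 22 genes of these steps were above the median gene. The linker enzyme gene *B3gat3* (187.0) and the polymerising factor gene *Chpf* (101.7) were the highest, and the sulfotransferase gene *Chst13* (0.0817, a base mean of 0.687) was the lowest. All 4 receptor genes for chondroitin sulfate were above the median gene, with the receptor phosphatase genes *Ptprs* (92.8) and *Ptprf* (64.4) at the top and *Rtn4r* (15.2) at the bottom. Among 13 genes of lectican-cleaving proteases and their inhibitors, 7 were above the median gene. The inhibitor gene *Timp2* was at 525 and *Adamts4*, an aggrecanase that also cuts brevican, at 148.0, and the stromelysin gene *Mmp3* was the lowest, with a base mean of 0.0918, that of 1 read in 1 library. Of 9 genes for other tenascins and proteins that bind nets, *Crtac1* (173.6) and *Vtn* (167.0) were the highest, and the homeobox gene *Otx2* (0.0314, a base mean of 0.673) was the lowest.

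**Figure D4:**
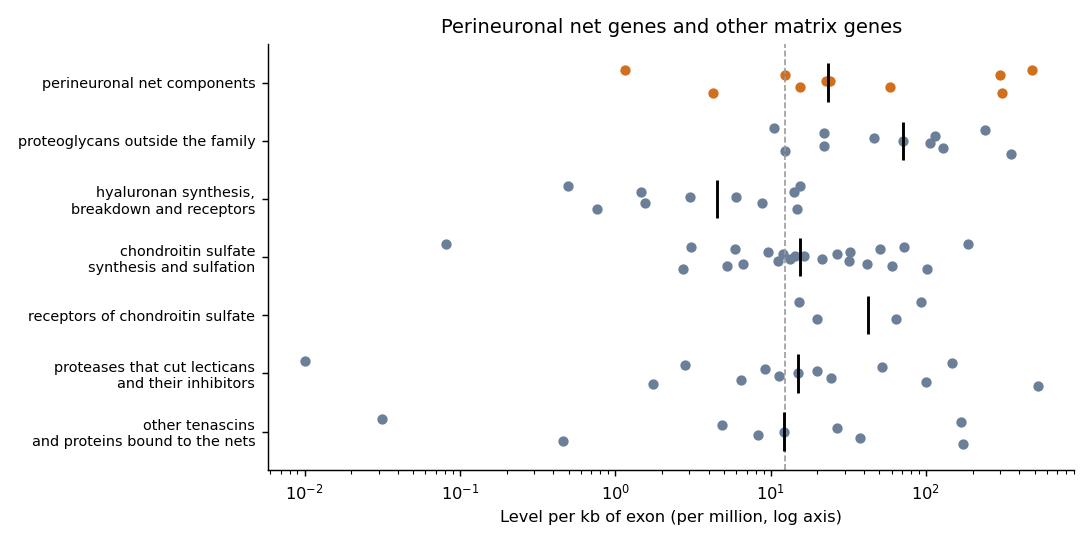
Level per kb of exon (log axis, scaled to 1000000 over all genes) of the 10 perineuronal net genes (orange) and of the genes of 6 other matrix lists (blue-grey), 1 point a gene, with a black bar at the median of each row and a dashed line at the median of all genes, 12.5. The vertical offset within a row has no meaning. The net genes reach from 1.15 to 482, the highest hyaluronan gene lies at 15.5, and the lowest of the proteoglycans outside the family lies at 10.5.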

How the data were processed

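The authors sequenced stranded libraries with paired reads from 10 spinal cords, 5 of each genotype. According to the methods and the submitters' processing notes, the authors removed reads of low quality with Fastp, aligned the others to mm10 with HISAT2 2.1.0, assigned the uniquely mapped ones to genes with featureCounts 2.0.2 and normalised the counts with DESeq2. The gene annotation and the strand setting are not given in the sources used here, so the exon lengths used below may differ from the authors' gene models. The base mean of the deposited table is a normalised signal, the mean over the libraries of read counts after the authors divided each by the size factor of its library, with no scaling to length. The table also holds the authors' log2 fold changes, standard errors, Wald statistics and p-values of SOD1 G93A against WT. These columns of the authors' own comparison were not used.

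Gene lengths and positions came from GENCODE M21 (GRCm38, the build that mm10 denotes). The shortest protein-coding transcript of a gene was taken from the basic subset of this annotation, and the other lengths from the full set. Of 25232 symbols, 24355 (96.5%) matched, with 98.9% of the summed base mean, and for 45 symbols with a second record the longer one was taken. The level is the base mean per base of exon union, scaled to 1000000 over matched genes. The computation recovered known levels from simulated counts drawn with the same gene lengths, which checks the arithmetic and not the lengths. Counting intervals are 95% intervals on the log scale at the lowest read number that the base mean allows. No test between samples was possible, so no p-value is given, and the samples enter as 1 mean. A planned comparison of protein sequences was not run. Promoters are from RefSeq (GRCm38.p6).

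The genes named are the members, *Sod1*, and from each matrix list the 2 highest, the lowest above 0 and any at 0, of which there were none. From the marker lists only some of these are named. The values of 3 marker genes are not reported here. The members and lists were chosen with earlier results of these data known. *Tmem2*, an older symbol of *Cemip2*, was not matched. Alternatives were other lengths, other totals and other sets of ranked genes. Computations ran in Python 3.11.15 (pandas 2.3.3, numpy 2.4.6, scipy 1.17.1), and plots were drawn with matplotlib 3.10.9.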

Additional observations from a re-analysis of the deposited data

How the results depend on the processing

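The summed level of the 10 genes was 1231 with the union of exons, 1059 with the longest transcript, 768 with the longest coding sequence, 653 with the shortest protein-coding transcript (chosen after seeing the data) and 1262 when only protein-coding genes entered the total. The table holds no mitochondrial genes, so leaving them out of the total changed nothing. Of the 45 pairs of members, 44 kept their order with the longest transcript, 40 with the longest coding sequence, 39 with the shortest protein-coding transcript and 42 with no length scaling. The link protein was above its neighbouring lectican in 2 of 4 pairs with the union, the longest transcript and the longest coding sequence, and in 1 pair with the shortest protein-coding transcript, where the log2 ratio of *Hapln1* to *Vcan* turned from 0.31 to −2.31. Between these definitions the *Vcan* length fell from 14462 to 2273 bases and that of *Hapln1* from 5902 to 5715. The median percentile of the members was 62.1 in the ranking reported, 56.7, 59.4 and 63.7 with the longest transcript, the longest coding sequence and the shortest protein-coding transcript, 68.2 when genes at 0 were ranked too and 50.5 among genes whose base mean reached 10. No paired analysis was possible because the table gives 1 mean over all libraries, and for the same reason no library could be left out. Depth limits *Hapln3* most.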

Other observations

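The table showed how its low values are built. The 10 distinct values that 1 read takes were each shared by 50 to 103 genes, and 311 of the 311 base means in the range from 2 to 2.4 times the smallest of them were sums of 2 such values, to within 1e-06.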
